A study of Mus musculus with 22 samples.

Results

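Gene expression was compared between 6 arrays of male and 5 arrays of female littermate controls, in urogenital sinus epithelium taken from fetal mice at E16.75. The male sinus is the tissue from which the prostate buds, and the female sinus does not normally form one. These 11 arrays were all the control arrays of a series of 22, whose other 11 came from Sox9 knockouts, 6 male and 5 female. The genes described are autosomal, with exactly 1 gene symbol on the array platform, and each was read from its probe set of highest mean over the 22 arrays. Of 28172 such genes, 18161 were bright enough to be tested, out of 19050 genes tested over all chromosomes.

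The controls had 2 intact Shh alleles, no Cre recombinase, and 1 floxed and 1 wild-type Sox9 allele (Shh+/+; Sox9+/fl), on the C57BL/6J background. Both sexes therefore carried the floxed allele, and no control was free of it. The knockouts had Cre inserted at 1 Shh allele and 2 floxed Sox9 alleles (ShhCre/+; Sox9fl/fl). Their arrays were used for the same contrast of sexes. They also entered the choice of probe sets and the estimate of spread behind the control calls. In all groups the tissue was loosened by trypsin and collagenase, the mesenchyme was pulled away, and bladder and urethral epithelium were removed. Replicates are called biological, with no word on pooling of fetuses, so each p-value measures only how far these arrays spread. The sexes differ in sex chromosomes as well as in hormones, and these cannot be told apart in this design.

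As background, the fetal testis secretes androgen, which acts through the mesenchyme around the sinus to make the epithelium grow out as solid buds. The mesenchyme signals back through secreted factors of the FGF, WNT and BMP families, while the epithelium makes Sonic hedgehog. Several steroid hormone receptors bind DNA at palindromes of a shared half-site, AGAACA, so many androgen-responsive genes also respond to other steroids.

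The labels of sex held on all 11 arrays: Xist lay between 4.31 and 4.57 on the log2 scale in males and between 11.56 and 11.93 in females. The tissue label was checked against 9 epithelial markers, whose mean level ran from 10.76 to 10.82 in males and from 10.79 to 10.88 in females. Of these 9, only Krt18, a keratin of simple epithelium, was called, with a difference of -0.28 (log2, male minus female). The 5 uroplakins, proteins of the urothelial surface, had a mean level from 10.58 to 11 in males and from 10.44 to 11.03 in females, and none was called. Immune, neural and duct markers gave no call either. Of 4 erythroid markers only Alas2 was on the array, and as it is not autosomal it could not be called. It differed by -0.02. Male control 6 stood apart in stromal RNA: its mean over the mesenchymal markers was 7.88 where the next male array had 6.84, over smooth muscle markers 7.21 against 5.83, and over endothelial markers 5.51 against 4.66. Male control 4 stood apart on the second principal component, which held 17.5% of the variance. The first component held 31% and separated the sexes, with males from 0.821 to 15.5 and females from -17.6 to -8.5. The total of calls is given below with and without male controls 4 and 6, as are some list counts and single calls. Other results are given with all arrays only. In whole-tissue RNA of this kind, fewer cells of a type and less RNA per cell cannot be told apart.

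The 24 genes with the largest differences, 12 in each direction, were matched by symbol to RefSeq promoters (GRCm38.p6), and 20 had an entry. The 250 bases upstream of the start were searched for the half-site AGAACA on both strands, so that it also appears as TGTTCT. It occurred in 4 of the 20 genes, Mmp7, Coro2a, Cxcr4 and Ceacam1, all of which were higher in males. Counted by promoter, this was 4 of the 24 promoter entries of these genes. The same letters were in 16.1% of 31396 autosomal promoters, in 11% of the promoters of genes tested, in 10.7% of promoters of genes higher in males and in 8.46% of those of genes lower in males. A match is a description of the letters and not a binding site. The windows of Cxcr4 (chr1:128592300-128592549, minus strand) and Ceacam1 (chr7:25477626-25477875, minus strand) are shown because they end at the only start listed for these genes. Capitals mark the half-sites, at 185 bases upstream of the start in Cxcr4 and at 136 and 130 bases upstream in Ceacam1. In Ceacam1 a TGTTCT and an AGAACA lie directly side by side, which is not the order of the full palindrome. In that palindrome AGAACA comes first and TGTTCT follows after a short fixed gap. It was in 0 of the 24 promoter entries.
Cxcr4: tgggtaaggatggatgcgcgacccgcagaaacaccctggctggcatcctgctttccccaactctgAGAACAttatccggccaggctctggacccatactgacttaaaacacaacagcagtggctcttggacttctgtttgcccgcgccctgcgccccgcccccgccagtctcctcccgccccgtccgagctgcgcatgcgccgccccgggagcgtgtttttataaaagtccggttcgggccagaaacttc
Ceacam1: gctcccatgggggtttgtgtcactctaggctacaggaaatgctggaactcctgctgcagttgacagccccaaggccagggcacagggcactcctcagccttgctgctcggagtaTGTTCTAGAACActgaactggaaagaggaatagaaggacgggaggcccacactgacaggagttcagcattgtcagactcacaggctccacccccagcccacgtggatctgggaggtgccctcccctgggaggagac

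Male and female control epithelium differed at 1269 autosomal genes, which was 6.99% of those tested (limma, Benjamini-Hochberg adjusted p under 0.05). In males 606 genes were higher (3.34%) and 663 lower (3.65%). Most differences were small: the median size among called genes was 0.316 on the log2 scale, and 52 genes differed at least 2-fold, 26 in each direction. The membrane peptidase Mme led the genes higher in males, at 6.35-fold, and the secreted protease Adamts18 led those lower in males, at 5.53-fold. The ranges of the 6 male and 5 female arrays did not overlap at 1026 genes, 5.65% of those tested, of which 519 were above (2.86%) and 507 below (2.79%) in males. Of the 1026, 847 were among the calls. When each array was centred on its own median the calls became 568 higher and 344 lower, which moved the share of higher calls from 47.8% to 62.3%. Leaving out 1 array at a time gave 965 to 1621 calls. The number was 1621 without male control 4, 1149 without male control 6 and 1273 without both. With only the 11 control arrays in the model it was 1037.

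**Figure D1:**
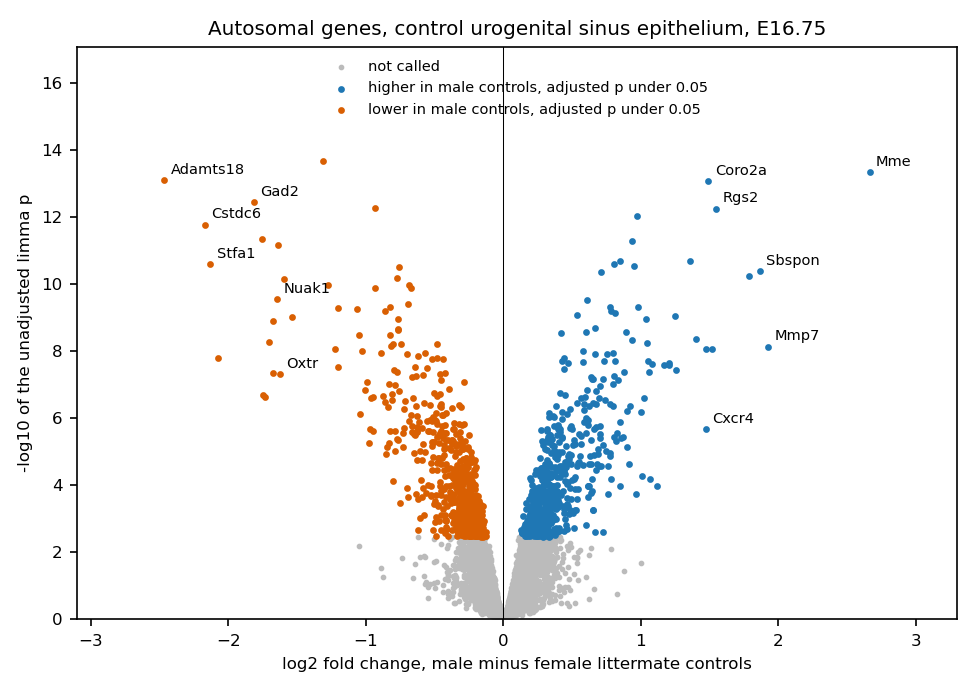
Differences between male and female control epithelium. Each point is 1 of 18161 autosomal genes; the horizontal axis is the log2 difference, male minus female, and the vertical axis is -log10 of the limma p-value. The horizontal spread of the 1269 called genes (coloured) reaches from Adamts18 to Mme, with Mme farthest to the right and Adamts18 farthest to the left.

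Among the 12 genes most raised in males were several enzymes and secreted proteins. Mme (neprilysin), a peptidase of the cell surface that cleaves small signalling peptides, lay at 8.18, 8.29 and 9.21 (lowest, median and highest of 6 male arrays) and at 5.77, 6.32, 5.76, 5.70 and 5.39 in the 5 female arrays. Every male array was above every female array, and male control 6 was the highest. The difference was 2.67 ± 0.16 (log2, SE; limma adjusted p = 1.44e-10). Mmp7 (matrilysin), a matrix metalloprotease of glandular epithelia, lay at 8.43, 9.26 and 9.49 in males and at 7.18, 7.09, 7.31, 7.13 and 7.35 in females, again without overlap. It was higher in males by 1.93 ± 0.21 (limma adjusted p = 2.13e-06). Rgs2, which shortens signalling through G proteins, lay at 8.42, 8.64 and 8.85 in males and at 7.14, 7.08, 7.01, 6.81 and 7.35 in females. Its difference of 1.55 ± 0.11 exceeded the spread of either sex (limma adjusted p = 9.67e-10).

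Hpgd, which inactivates prostaglandins, lay at 8.0, 8.13 and 8.32 in males and at 6.74, 6.95, 6.69, 6.53 and 6.96 in females, a difference of 1.36 ± 0.11. Coro2a, a coronin of the actin-binding family, was among the tightest of these genes, at 8.98, 9.20 and 9.29 in males and at 7.89, 7.61, 7.49, 7.73 and 7.70 in females. Its difference was 1.49 ± 0.09 (limma adjusted p = 2.05e-10). Neither gene overlapped between the sexes. Cxcr4, the receptor of the chemokine Cxcl12, varied more, from 8.09 to 9.22 with a median of 8.65 in males and 7.67, 7.02, 7.16, 6.64 and 7.31 in females. It was higher in males by 1.47 ± 0.23 (limma adjusted p = 0.000176). The adhesion molecule Ceacam1 was higher by 1.40, with female control 4, at 7.53, below the other 4 female arrays at 8.13 to 8.19. The remaining 5 were Sbspon (1.86), AU022754 (1.79), the nuclease Dnase1l2 (1.52), the protease inhibitor Spink5 (1.48) and the zinc finger gene Zbtb8b (1.26).

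Of the 12 genes most lowered in males, Adamts18, a secreted metalloprotease, lay at 7.77, 7.91 and 8.50 in males and at 10.72, 10.40, 10.27, 10.29 and 10.61 in females. The gap between the sexes was wider than either range, with male control 1 the highest male, and the difference was -2.47 ± 0.15 (limma adjusted p = 2.05e-10). Gad2, one of the enzymes that make GABA, lay at 4.97, 5.22 and 5.49 in males and at 6.96, 7.30, 6.66, 7.07 and 7.12 in females, a difference of -1.81 ± 0.12. Oxtr, the oxytocin receptor, lay at 4.81, 5.60 and 6.05 in males and at 6.69, 6.88, 7.14, 7.56 and 7.39 in females. Its difference was -1.63 ± 0.20, and the sexes did not overlap for either gene. Adm, which encodes the vasodilator peptide adrenomedullin, lay at 6.85, 7.94 and 8.42 in males and at 10.18, 9.71, 9.17, 9.20 and 9.93 in females. Its difference was -1.75 ± 0.24 (limma adjusted p = 2.82e-05), with male control 1 below the other male arrays.

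Stfa1, Cstdc6 and Cstdc5, cysteine protease inhibitors of the stefin family, were lower in males, with differences of -2.13, -2.17 and -1.64. They are neighbours on chromosome 16 with near-identical copies, so probes may not separate them and the 3 values may not be independent. The other 5 were the lipase relative Pnliprp1 (-1.76), the chemokine Cxcl13 (-1.73), the netrin receptor Dcc (-1.68), the extracellular matrix protein Dpt (-1.67) and the kinase Nuak1 (-1.64). Dpt is made mainly by fibroblasts, and the mean of the mesenchymal markers was 6.68 to 7.88 in males, with 5 of 6 arrays at 6.84 or below, and 6.84 to 7.01 in females. Of the 6 of these markers tested, 1 was called, lower in males, and their part in the results was not tested. For each of the 24 genes the 6 male arrays lay entirely on one side of the 5 female arrays, as at 5.65% of all genes tested. A two-sided exact permutation test gave p = 0.00216, the smallest that 462 regroupings can give, for 23 of them and p = 0.00433 for Dpt. These genes were chosen for large differences on the same arrays, so neither the separation nor these p-values are further evidence. The 24 kept their calls under every alternative in which they were tested; Spink5, Cxcl13 and Cstdc5 were too dim for the filter at the 75th percentile.

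**Figure D2:**
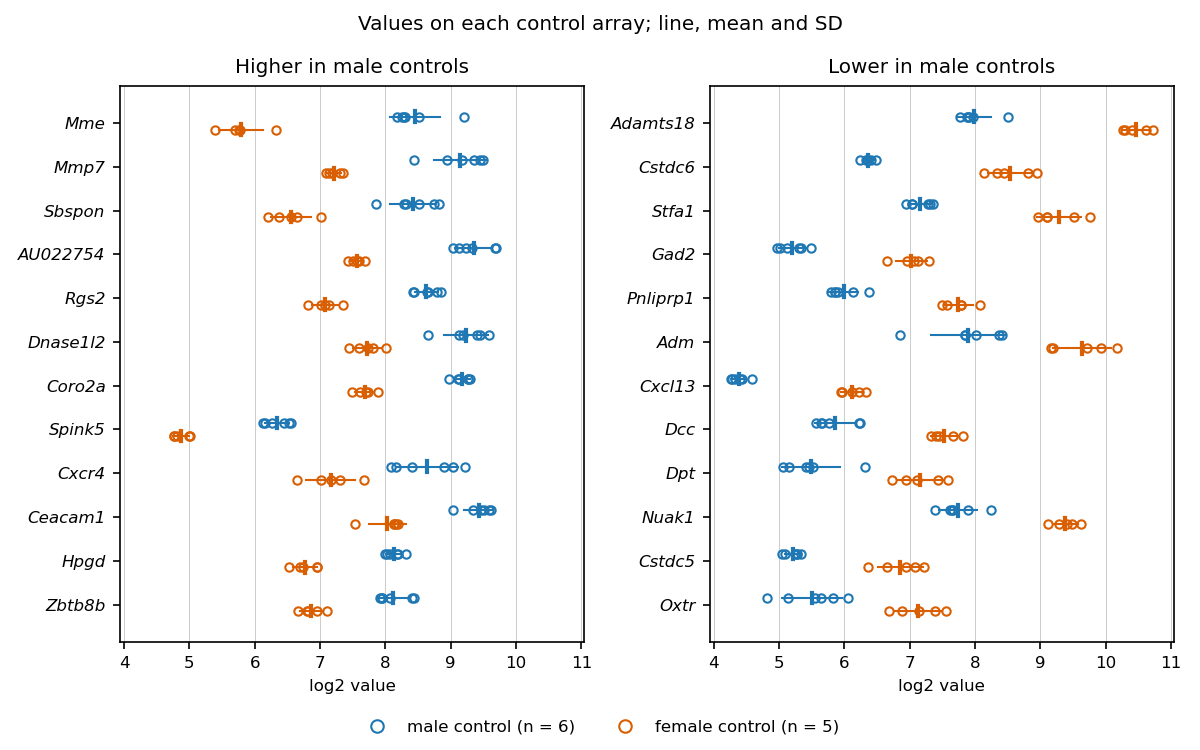
Log2 level on each control array for the 24 genes with the largest differences. Each circle is 1 array, 6 male and 5 female, and lines give the mean and SD. The sexes do not overlap for any of these genes, and within a gene single arrays can stand apart, such as male control 6 for Mme at 9.21.

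Genes known to respond to androgen in the prostate differed in both directions. Of 23 tested, 5 were higher and 3 lower in males (34.8% called against 6.99% of all genes). The median difference was 0.08, against -0.01 for all autosomal genes. This list and those below were chosen with earlier results of these data known, so their shares of calls are a description only. The 5 higher genes were Mme, Hpgd, the kinase Sgk1 (1.2), the zinc finger factor Zbtb16 (0.80) and the chaperone Fkbp5 (0.46). The 3 lower genes were Ndrg1, Pmepa1 and Bhlhe40 (-0.48). Ndrg1, which is also known as a hypoxia-induced gene, lay at 8.41, 8.53 and 8.91 in males and at 10.51, 10.31, 9.75, 10.10 and 10.32 in females, a difference of -1.60 ± 0.14 (limma adjusted p = 4.98e-08). Pmepa1, an inhibitor of TGF-beta signalling, lay at 8.54, 8.67 and 8.79 in males and at 9.57, 9.52, 9.46, 9.62 and 9.75 in females. Both were lower on every male array than on any female array. Among 14 steroid receptors and enzymes (14.3% called), the estrogen receptor Esr1 was lower in males (-0.83 ± 0.09), at 5.64, 5.85 and 5.95 in males and 6.56, 6.41, 6.59, 6.82 and 6.80 in females. The glucocorticoid receptor Nr3c1 was lower (-0.16, limma adjusted p = 0.0394), a call lost in 13 of the alternatives, among them leaving out male control 3, 5 or 6 or female control 2, 3, 4 or 5. Without male control 4 the list had 4 calls in place of 2.

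A broad list drawn up for prostate buds held 31 tested transcription factors, and membership does not mean a known role there. Of the 31, Sox9 was higher in males and 7 others were lower (25.8% called, against 6.99% of all genes). Sox9 lay at 9.05, 9.33 and 9.61 in males and at 8.82, 8.93, 9.05, 8.77 and 8.89 in females, so that the lowest male and the highest female array lay close together. The difference was 0.44 ± 0.09 (limma adjusted p = 0.00159), in animals with 1 floxed allele in both sexes. The 7 lower genes included Sox11 (-0.55), Pitx1 (-0.46), Irx3 (-0.44) and Sox4 (-0.25). With each array centred on its median, 4 of the list were lower in place of 7. Of 13 posterior HOX genes, the neighbours Hoxd10 (-0.63) and Hoxd11 (-0.43) were lower in males (15.4% called), and the other 11 were not called. The list is short and its calls are neighbours, so this share says little about HOX genes as a group.

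Called signalling genes lay in both directions within the WNT, BMP, FGF, Notch and IGF lists. In the WNT list of 45 genes, 7 were higher and 5 lower in males (26.7% called, against 6.99% of all genes). Without male control 6 the list had 9 calls in place of 12. The feedback inhibitor Axin2, a common readout of canonical WNT signalling, lay at 8.06, 8.18 and 8.26 in males and at 7.32, 7.43, 7.71, 7.80 and 7.62 in females, a difference of 0.58 ± 0.07 (limma adjusted p = 4.57e-06). The transcription factor Lef1 lay at 6.55, 6.74 and 7.02 in males and at 5.76, 5.76, 6.21, 6.06 and 5.81 in females, a difference of 0.85 ± 0.14. Both genes were higher on all 6 male arrays than on any female array. The ligand Wnt4 was higher by 0.39 and the receptor Fzd6 lower (-0.32), the latter with overlapping ranges. Of the other called genes, named after their values were seen, the secreted inhibitor Notum was higher (0.32) and the secreted inhibitor Sfrp1 lower (-0.50).

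The BMP, activin and TGF-beta list had the most calls of the signalling lists, with 7 higher and 7 lower of 37 (37.8% called). Bambi, a decoy receptor of the pathway, lay at 8.46, 8.68 and 9.10 in males and at 9.73, 10.05, 9.87, 10.18 and 9.74 in females, without overlap. Its difference was -1.20 ± 0.14 (limma adjusted p = 5.75e-06). Tgfbr3, a co-receptor of TGF-beta, was higher in males by 0.61 ± 0.08, and the receptor Acvr1 was lower (-0.29 ± 0.04). Named after their values were seen, the ligands Bmp2 (0.76) and Bmp4 (0.44) and the BMP-induced inhibitors of transcription Id2 (0.43) and Id3 (0.37) were higher, and the secreted antagonist Fst was lower (-0.79). The ligands Bmp3 (-0.40) and Bmp6 (-0.28) were lower as well. Id1 (0.02), Id4 (0.03), Smad6 (-0.07) and Smad7 (-0.17) were not called. Of the 37 differences 24 were negative, with a median of -0.09.

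In the FGF list of 21 genes 19% were called, against 6.99% of all genes. The transcription factor Etv5 (0.62) and the receptor Fgfr3 (0.20) were higher, and the ERK phosphatase Dusp4 (-0.93) and the inhibitor Il17rd (-0.32) were lower. Dusp4 lay at 8.09, 8.43 and 8.62 in males and at 9.45, 9.39, 9.29, 9.25 and 9.38 in females. Etv5 and Dusp4, both known as genes induced by ERK signalling, thus differed in opposite directions, each without overlap. In the Hedgehog list of 17 genes the ligand Shh was the only call (5.88%, below the share of all genes). It lay at 11, 11.25 and 11.34 in males and at 10.48, 10.52, 10.97, 10.91 and 10.89 in females. Its difference was 0.47 ± 0.08 (limma adjusted p = 0.000722), with the lowest male just above the highest female array. Of 24 Notch genes, the target gene Hey1 (-0.53), the Hes family member Hes6 (-0.21) and the ligand Jag1 (-0.27) were lower and Dlk2 (0.21) was higher. The target genes Hes1, Hes5, Heyl and Nrarp were not called. With each array centred on its median, 1 Notch gene was higher and 1 lower. The calls of Dlk2, Jag1 and Fgfr3 were each lost without any one of 3 or more arrays, female control 5 among them, and without that array the Notch list had 2 calls in place of 4. Of 12 ectodysplasin genes, the receptor Tnfrsf19 (0.50) and the adaptor Edaradd (0.33) were higher. The EGF list of 12 gave 2 lower genes, the receptor Egfr (-0.27) and its ligand Ereg (-0.37). The IGF list of 14 (28.6% called) had Igfbp7 (0.77), the adaptor Irs1 (0.60) and Igfbp5 (0.25) higher and Igfbp2 (-0.59) lower.

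Retinoic acid genes showed a difference between the enzymes that make it. Aldh1a1 lay at 8.22, 8.48 and 8.65 in males and at 7.74, 7.87, 7.81, 7.62 and 7.37 in females, higher in males by 0.80 ± 0.10 (limma adjusted p = 1.49e-05). Aldh1a2 lay at 7.73, 7.92 and 8.40 in males and at 9.34, 8.70, 8.92, 8.51 and 9.20 in females, a difference of -0.97 ± 0.15. Neither overlapped between the sexes. The retinol transporter Stra6 was higher (0.77), and the receptor Rara (-0.25) and the binding protein Crabp2 (-0.38) were lower. This made 5 calls of 18 (27.8%, against 6.99% of all genes). The call of Crabp2 was lost without female control 1. Aldh1a1 lies beside Aldh1a7 (0.61) and Anxa1 (0.66) on chromosome 19, both also higher in males. Aldh1a7 is a close relative of Aldh1a1, and probes may not separate them.

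The called genes of squamous differentiation and the called keratins were all lower in males. Of 15 tested genes of squamous differentiation, 5 were lower and 0 higher (33.3% called), with a median of -0.21. Krtdap, a secreted protein of differentiating keratinocytes, lay at 4.31, 4.53 and 4.63 in males and at 5.62, 5.57, 5.69, 5.40 and 5.21 in females, a difference of -1.01 ± 0.13. The other 4 were Stfa1, Krt10 (-0.57), Dmkn (-0.46) and Sfn (-0.44). Of 15 keratins, Krt17 (-0.76), Krt10, Krt14 (-0.30) and Krt18 (-0.28) were lower and none was higher (26.7% called, against 6.99% of all genes). Krt17 lay at 10.63, 10.74 and 10.83 in males and at 11.64, 11.63, 11.48, 11.40 and 11.34 in females, whereas Krt14 and Krt10 overlapped. The call of Krt14 was lost without any one of male controls 1, 4 and 5 and female controls 1, 2 and 3, and that of Krt18 without male control 2 or 6 or female control 1 or 3. Krt5 and Trp63, markers of the basal layer, differed by -0.11 each and were not called. Psca, a surface protein of urothelium and prostate progenitors, was the only call of 11 urothelial genes (9.09%) and was higher in males by 0.82, as were its neighbours on chromosome 15, Slurp1 (0.60), Lypd2 (0.85) and Them6 (0.54).

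Of 34 cell junction genes, 9 were lower and 1 was higher in males (29.4% called, against 6.99% of all genes). The desmosomal cadherin Dsg3 lay at 4.95, 5.48 and 5.64 in males and at 6.96, 6.44, 6.66, 6.37 and 6.63 in females, a difference of -1.20 ± 0.12 (limma adjusted p = 2.46e-07). Its neighbours on chromosome 18, Dsc3 (-0.98), Dsg2 (-0.29) and Dsc2 (-0.28), were also lower, as was the desmosomal plaque protein Pkp1 (-0.48). The exception was the tight junction protein Cldn1, at 7.03, 7.36 and 7.43 in males and 6.03, 5.83, 6.62, 6.49 and 6.27 in females, higher in males by 1.02 ± 0.14. Centring each array on its median left 4 lower in place of 9.

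Matrix and guidance genes had opposite members within a family. Of 28 matrix proteases and inhibitors (35.7% called, against 6.99% of all genes), 4 were higher, led by Mmp7, and 6 were lower, all of them ADAMTS metalloproteases. Beside Adamts18 these included Adamts16 (-0.77) and Adamts5 (-0.68). In the basement membrane list of 34 genes (23.5% called), 4 laminin chains were higher: Lamc1 (0.59), Lamb2 (0.42) and, named after their values were seen, Lamb1 (0.26) and Lama5 (0.22). Lamc1 lay at 9.95, 10.25 and 10.31 in males and at 9.53, 9.56, 9.71, 9.65 and 9.46 in females. The laminin chain Lama3 (-0.22) and the integrin Itga8 (-0.41) were among 4 lower genes, of which none was called after centring. Without female control 5 the list had 5 calls in place of 8. Of 44 axon guidance genes (22.7% called), Dcc, the Slit receptor Robo2 (-0.86) and the ligand Slit2 (-0.45) were among 6 lower genes. Robo2 lay at 8.21, 8.30 and 8.65 in males and at 9.22, 9.25, 9.01, 9.27 and 9.32 in females. Sema5a was higher by 0.69, and male control 6, at 8.50, was above the other males at 7.57 to 7.67.

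**Figure D3:**
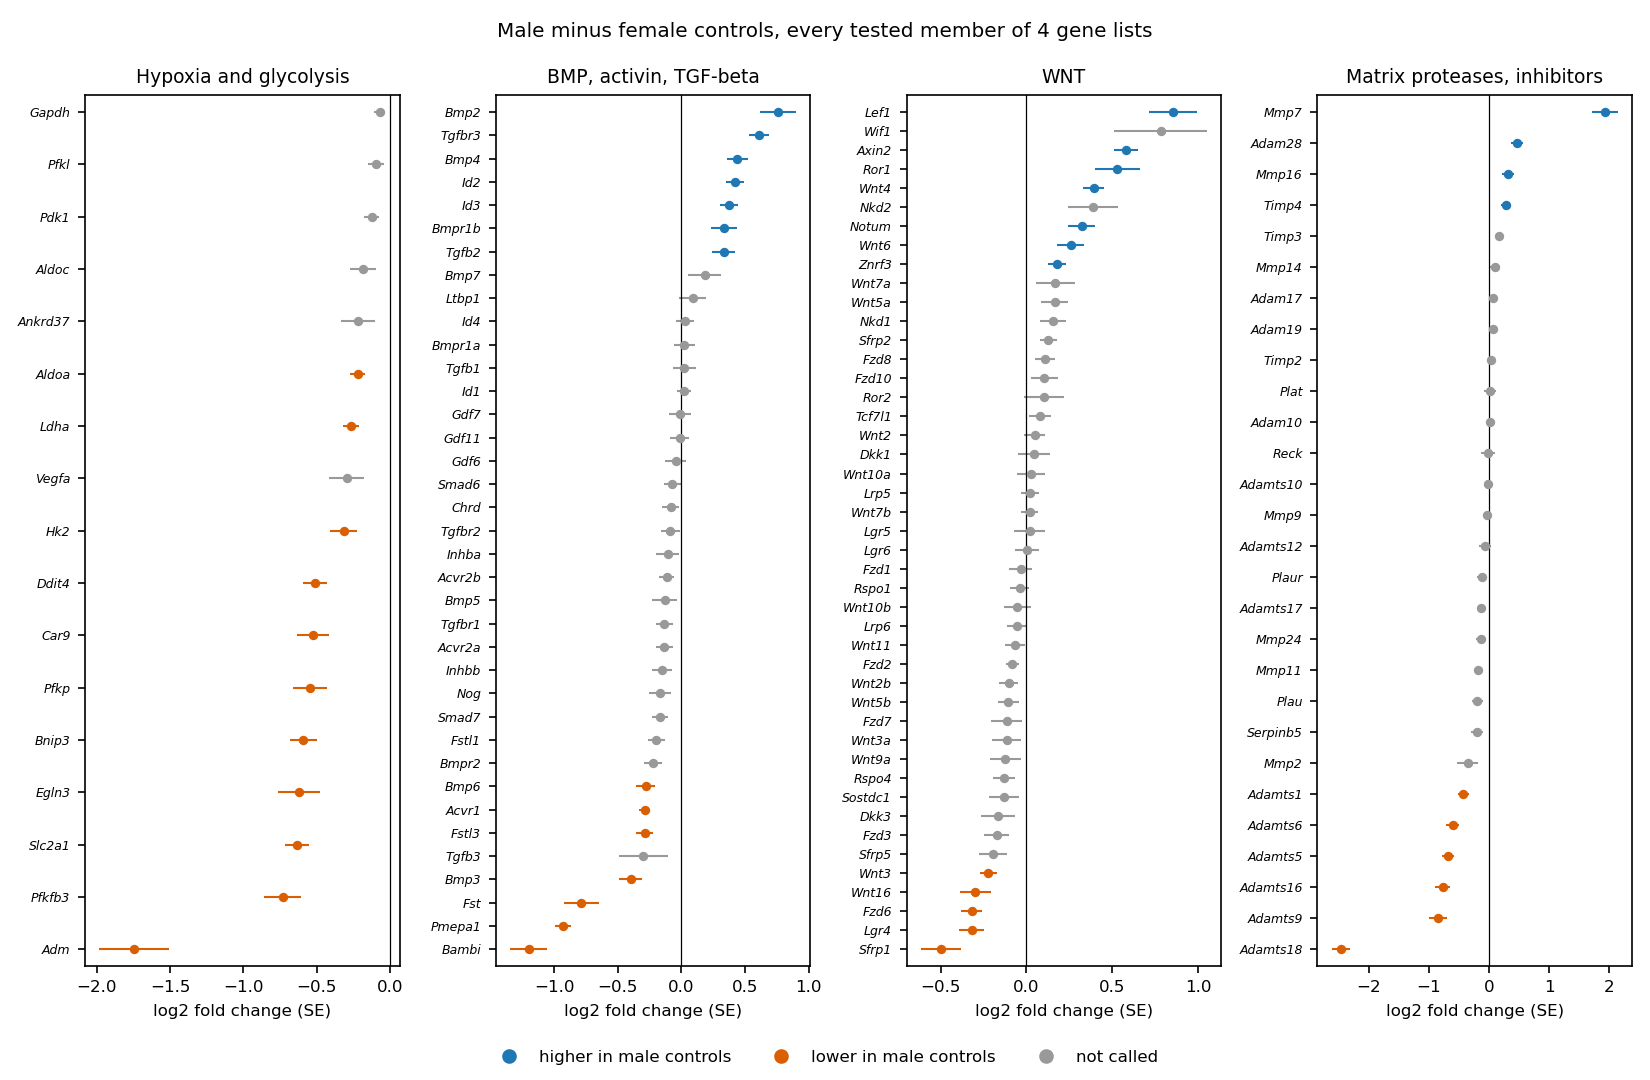
Log2 differences, male minus female controls, with bars of 1 SE, of every tested member of 4 gene lists. Coloured points passed the limma test; the hypoxia and glycolysis list lies wholly below 0, with Adm at -1.75, while the WNT and BMP lists spread to both sides.

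The hypoxia and glycolysis genes had the highest share of calls of the lists examined, with 11 of 17 lower in males and 0 higher (64.7% against 6.99% of all genes). This list too was chosen with earlier results of these data known. All 17 differences were negative, also after quantile normalization and after centring, with a median of -0.32. Slc2a1, the glucose transporter GLUT1, lay at 11.08, 11.17 and 11.29 in males and at 11.96, 11.87, 11.55, 11.75 and 11.92 in females, a difference of -0.63 ± 0.08 (limma adjusted p = 9.53e-06). Besides Adm, the mitophagy receptor Bnip3 (-0.59) and the mTORC1 inhibitor Ddit4 (-0.51) were lower. The mean level of the list ran from 8.29 to 8.64 on the male and from 8.69 to 9.07 on the female arrays. Named after their values were seen, the glycolytic regulator Pfkfb3 (-0.73), Ldha (-0.27) and Aldoa (-0.22) were lower as well, while Gapdh (-0.07) and Vegfa (-0.29) were not called.

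Immediate early and stress genes, which respond to dissociation and handling, moved in the same direction on the list's mean: 7.12 to 7.22 in males and 7.31 to 7.38 in females. Of their 18 tested members 16 were negative, with a median of -0.11, and 2 were called (11.1%, against 6.99% of all genes). Jun was lower, at 8.29, 8.63 and 8.74 in males and 9.68, 9.84, 9.36, 9.54 and 9.50 in females, and Myc was higher by 0.50. Their part in the hypoxia and glycolysis result was not tested.

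**Figure D4:**
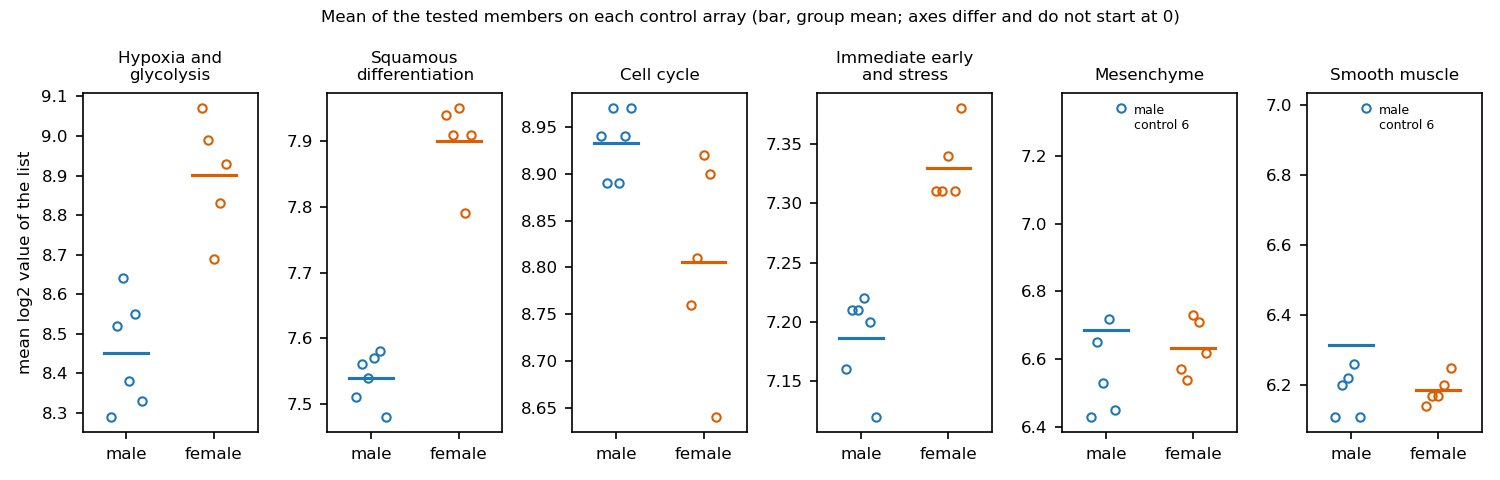
Mean log2 level of gene lists on each of the 11 control arrays. Each circle is 1 array, bars are group means, and the axes do not start at 0. The hypoxia and glycolysis mean is 8.29 to 8.64 on male and 8.69 to 9.07 on female arrays, and the smooth muscle mean is 6.99 on male control 6.

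Differences of cell cycle genes were small. Of 31 tested (19.4% called, against 6.99% of all genes), 28 differences were positive, with a median of 0.18. After adjustment 5 were called higher: Cdc20 (0.32), Bub1 (0.28), Top2a (0.28), Aurkb (0.24) and Ccnd2 (0.21). An unadjusted limma p under 0.05, in either direction, was found for 20 of the 31 and for 3454 of all 18161 autosomal genes. The proliferation marker Mki67 differed by 0.11 and was not called. Cdkn1a (p21), an inhibitor of cell cycle kinases, was lower in males (-0.70 ± 0.08), at 9.25, 9.51 and 9.71 in males and 10.01 to 10.32 in females. Without any one of male controls 3, 5 and 6 and female controls 1 and 2 only 2 members of the list were called in place of 6, without female control 5 only 1, and after centring 1 was higher and 1 lower.

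Lists of secretion and lipid synthesis had shares of calls near the 6.99% of all genes. Of 25 genes of protein folding in the endoplasmic reticulum, the disulfide isomerase Agr2 (0.88), which is made by mucus-secreting epithelia, and Pdia6 (0.24) were higher and Ddit3 (-0.29) was lower (12% called). Without any one of male control 6 and female controls 2 and 5 only 1 call was left in the list. Of 19 genes of cholesterol and fatty acid synthesis only Elovl5 was called (5.26%), higher by 0.20, and it was not called without female control 1 or 5. Of 14 surface markers of prostate progenitors (21.4% called), Psca and Aldh1a1 were higher and Ly6d was lower (-0.58), a call lost without female control 5.

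The lists of other cell types are short, and their shares of calls are to be read against the 6.99% of all genes. Of 13 mesenchymal genes only Dcn, which encodes the proteoglycan decorin, was called (7.69%), lower in males (-0.36), and it was not called without any one of male controls 1, 3 and 4 and female controls 2 to 5. The 12 smooth muscle, 7 endothelial and 9 blood and immune genes gave 0 calls each with limma. They also gave 0 at an unadjusted p under 0.05, which 3454 of the 18161 autosomal genes had. Acta2, the smooth muscle actin, was at 9.27 in male control 6 and at 5.79 to 6.34 in the other 5 male arrays, against 5.78 to 6.18 in females. With that array the male SD was 1.305 for Acta2 and 0.8009 for the endothelial Cdh5, against 0.1513 and 0.01794 in females. The lack of calls in the smooth muscle and endothelial lists therefore does not show equal levels. Of duct genes only Ret, the GDNF receptor, was called (0.36; 1 of 12, 8.33%), with 2 calls in that list without male control 4 or female control 5, and of neural genes only Th, the tyrosine hydroxylase (0.48; 1 of 8, 12.5%).

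The same contrast was made on the knockout arrays, whose genotype is meant to delete both Sox9 copies by Cre from the Shh locus. Sox9 lay at 8 to 8.37 in male and at 7.81 to 7.99 in female knockouts, below every control array. It was still higher in males there, by 0.37 ± 0.09 (limma adjusted p = 0.00703). Both contrasts share the estimate of spread of each gene, so the calls in controls and in knockouts are not independent. In knockouts 1309 genes were called (7.21%), 675 higher (3.72%) and 634 lower (3.49%) in males. In both genotypes 775 genes were called in the same direction, which was 61.1% of the control calls and 59.2% of the knockout calls. Of the 1269 genes called in controls, 1244 (98.0%) had the same sign in knockouts, against 68.1% of all autosomal genes. Of the 24 largest genes, 23 were called in knockouts with the same sign. Mme differed there by 2.48 and Adamts18 by -2.74.

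The exception was Cxcr4, which differed by 0.46 in knockouts and was not called there (limma adjusted p = 0.325). The gap between the 2 differences, 1.01 ± 0.33, did not pass the adjusted test (limma adjusted p = 0.997). The stefins Cstdc6 (-1.30) and Stfa1 (-1.38) were also called in knockouts, and the gaps to their control differences did not pass either. Mia, an SH3-domain protein of cartilage, was named after its values were seen: it was higher in male controls by 0.92 and differed by 0.03 in knockouts (limma adjusted p = 0.979), and the gap was not called. Of the 17 hypoxia and glycolysis genes 8 were lower in male knockouts, and the ranges of the list's mean did not overlap there either, at 8.41 to 8.66 in males and 8.77 to 8.92 in females. A test of whether the difference of the sexes itself differed between controls and knockouts called 1 gene (0.00551%), Gpr157, an orphan receptor. Its difference was -0.26 in controls and 0.15 in knockouts, and the gap of -0.40 ± 0.06 had a limma adjusted p of 0.0292. Unadjusted, 722 genes had a p under 0.05. Gpr157 was singled out after its values were seen. The count was 0 under 4 of the other processings, 0 without any one of male controls 2, 3 and 6 and female controls 1, 2 and 5, and 2 without female control 3.

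**Figure D5:**
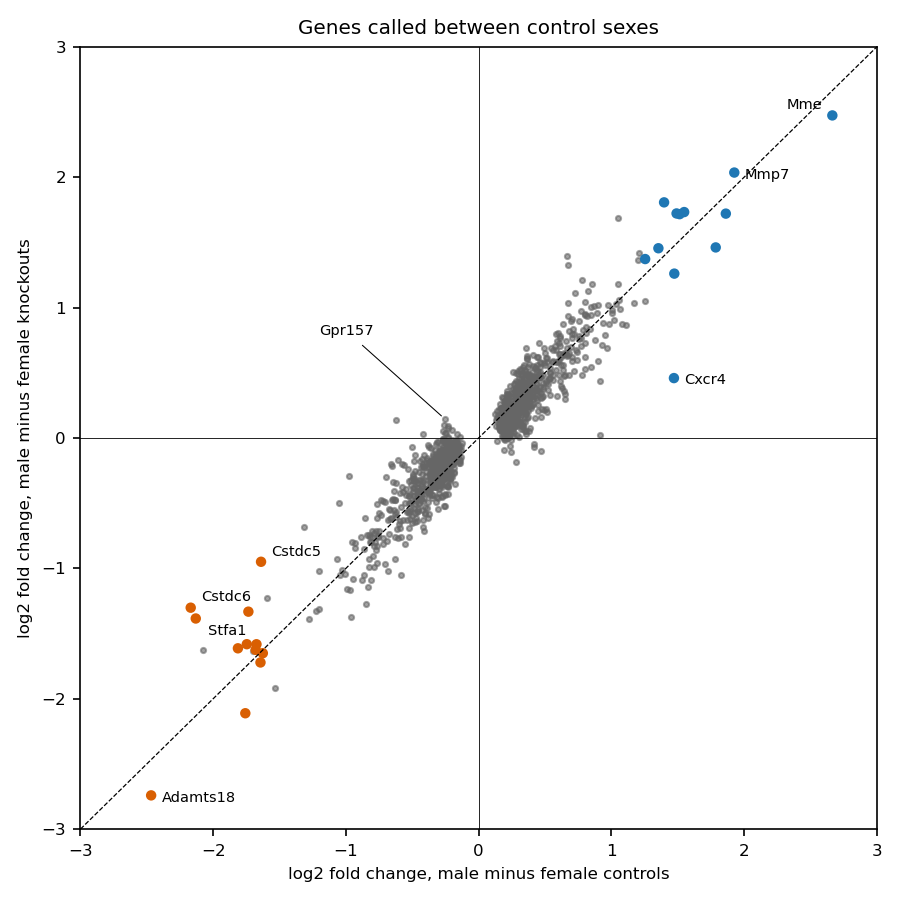
Log2 difference of male minus female in controls (horizontal axis) and in Sox9 knockouts (vertical axis). Each point is 1 of the 1269 autosomal genes called in controls, the coloured points are the 24 largest, and the dashed line marks equal differences. Of these 1269 genes 1244 have the same sign on both axes; Cxcr4 lies at 1.47 and 0.46.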

How the data were processed

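Total RNA from urogenital sinus epithelium was labelled with biotin and hybridised to Affymetrix whole-transcript arrays, per the labels' protocols. The authors deposited 1 table of log2 values for 72688 probe sets on 22 arrays. The scale was read from the values (1.59 to 14.23) and array medians (5.10 to 5.27), and the software of normalization is not given in the sources used here. A set of 23 background probe sets had a median of 3.19. The values were used as deposited, and the number of arrays limits the precision (median SE 0.0678).

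Names came from the platform's gene table, where 30604 probe sets had exactly 1 symbol. They were kept if above the array median (50th percentile) on at least 5 arrays. One limma 3.58.1 model (R 4.3.3) held the 4 group means over 22 arrays (18 residual and 4.34 prior degrees of freedom), so control and knockout contrasts share the estimate of the spread. Calls used limma's moderated test with Benjamini-Hochberg adjustment (threshold 0.05) across the 19050 genes. Levels of different probe sets were not compared. Chromosomes and neighbours come from RefSeq GRCm38.p6. No scan date or litter is given, so no batch was fitted. The replicate numbers do not pair the sexes: deviations of same-numbered arrays correlated between -0.14 and 0.10.

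The genes named are the 12 largest called differences in each direction without predicted genes, clones and RNA models, up to 4 called members of smallest p of each list, all called members of lists with 5 or fewer, and Sox9 and Shh. The members, lists and tests were chosen with earlier results of these data known. Programs were tested on simulated data. Figures used matplotlib 3.10.9 in Python 3.11.15.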

Additional observations from a re-analysis of the deposited data

Results flagged for a closer look

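Of 216 groups of 5 or 6 control arrays examined for single arrays far from the rest, 16 had one, and chance gives about 1 in 20 such groups. In male control 6, Mme (9.21, others 8.18 to 8.51), Dpt (6.31, others 5.06 to 5.52), Igfbp2 (9.06, others 8.26 to 8.55) and Sema5a (8.50, others 7.57 to 7.67) were the highest male values. In the same array Acta2 (9.27, others 5.79 to 6.34), Cnn1 (7.32, others 5.42 to 5.79) and Cdh5 (7.08, others 4.90 to 5.47) were also far above the other males.

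In male control 1, Adamts18 was the highest male value (8.50, others 7.77 to 7.97), and Adm (6.85, others 7.84 to 8.42), Ereg (5.68, others 5.93 to 6.06), Psca (9.89, others 10.33 to 10.56) and Ly6d (7.96, others 8.79 to 9.09) were the lowest. Sox18 was high in male control 4 (6.29, others 5.70 to 5.89). Among females, Ceacam1 was low (7.53, others 8.13 to 8.19) and Tnfrsf19 high (8.77, others 8.33 to 8.46) in female control 4, and Myc was low in female control 2 (7.43, others 7.61 to 7.66). The difference of the sexes in Gpr157 differed between controls and knockouts by -0.40 on the log2 scale (limma adjusted p = 0.0292).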

How the results depend on the processing

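The count of genes called between the sexes in controls was 912 to 1814 under the alternatives run on all or the 11 control arrays, except with the replicate number as a block. With that replicate block, on the 11 control arrays, 718 genes were called, 375 higher and 343 lower in males; the numbers do not pair the samples, since 0 male and 1 female array of 5 matched best with its own number. Median centring gave 344 lower genes. Leaving out 1 array at a time gave 965 to 1621 calls, 450 to 744 higher and 498 to 877 lower. The count of genes whose difference between the sexes differed in knockouts was 1, and became 0 under quantile normalization, median centring, no filter and eBayes with trend and robust options, 2 with array weights, and 0 to 2 when 1 array was left out. It was 0 without male controls 4 and 6 together, a setting chosen after seeing the data. Of the 102 called genes that the naming rule gave, 78 kept their call under every alternative in which they were tested, the 24 largest among them; the filter at the 75th percentile left out 17 of the rule's 108 genes, 3 of the largest included. Nr3c1 lost it in 13 settings and Fgfr3 in 12. The direction of Cnn1, which was not called, turned to -0.022 without male controls 4 and 6. The cause of these changes was not tested.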

Other observations

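Transcript clusters with no symbol or with several numbered 15439 among those tested, of which 69 were higher and 80 lower in males. They were fitted and adjusted apart and were not limited to autosomes. Their counts are therefore not to be set beside those of the autosomal genes. Several called genes were neighbours that differed the same way: Clca1 (0.49) and Clca2 (0.67) on chromosome 3 and Rac3 (0.33), Dcxr (0.39) and Cbr2 (0.66) on chromosome 11 were higher in males. Scnn1g (-0.86) and Scnn1b (-0.38), 2 subunits of the epithelial sodium channel on chromosome 7, and Pnliprp1 with Pnliprp2 (-0.83) on chromosome 19 were lower. These genes were chosen after their values were seen. The share of tested genes called ranged from 4.83% on chromosome 14 to 10.1% on chromosome 18.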
